A study of Macaca mulatta with 39 samples.

Results

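EPCAM, CLDN6, CLDN10, CXADR and ESRP2 are 5 genes of epithelial cell adhesion and of the splicing programme of epithelia. Their members here are all 7 probe sets that the array's annotation gives to these gene symbols, of 24956 probe sets with a single gene name tested in all. EPCAM, CLDN10 and ESRP2 each had 1 probe set, and CLDN6 and CXADR each had 2. The genes were measured in cultured rhesus macaque cells, on single-colour oligonucleotide arrays, as log2 signals. The embryonic stem cells (ESCs) were lines C3106, which is male, and C3806, which is female. Fibroblasts had been grown out of teratomas, mixed-tissue tumours formed after ESCs were injected into immune-compromised mice: line C3106 gave 5 cultures (TA31 to TE31) and line C3806 gave 3 (TA38 to TC38). Skin fibroblasts formed 3 cultures (M032, M088 and M106p1), explanted from the macaques whose gametes gave rise to the lines. No group carried an engineered allele or a drug treatment by the labels, and the sources used here give neither ages nor culture conditions. Each ESC line is a single source, so a contrast of ESCs rests on 2 lines, and a teratoma culture may hold other cells that grew out with the fibroblasts.

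Epithelial cells are held together by lateral junctions. Claudins are membrane proteins that form the strands of tight junctions, and each claudin sets which ions and solutes pass between cells. EPCAM is a surface glycoprotein of simple epithelia that mediates contact between like cells and binds claudins, and it is widely used to sort pluripotent cells from fibroblasts. CXADR, the coxsackievirus and adenovirus receptor, is an immunoglobulin-type adhesion protein found at tight junctions. ESRP2 is an RNA-binding protein that directs the epithelial pattern of alternative splicing, for example of FGFR2, CTNND1, ENAH and CD44. Primate ESCs grow as tight, flat colonies with epithelial features, whereas fibroblasts are mesenchymal cells without tight junctions. On RefSeq's assembly T2T-MMU8v2.0, EPCAM lies on rhesus chromosome 13, CLDN6 and ESRP2 on chromosome 20, CLDN10 on chromosome 17 and CXADR on chromosome 3.

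Each source had 3 arrays, which the labels call biological triplicates. Nothing says that they came from separate cultures, so p-values over arrays measure only the spread between these arrays, which may be technical. The arrays C3806c, M106p1f and TB31c were left out because their profiles are those of other sources, which left 36 of 39 arrays: 5 from ESCs, 23 from teratoma fibroblasts and 8 from skin fibroblasts. The array labelled C3806c read 2.83 for EPCAM and 5.00 for ESRP2, within the range of the fibroblast arrays. All 8 measured ESC markers, POU5F1 among them, were called higher in ESCs than in both kinds of fibroblast. Their mean was 11.10 and 11.24 in the ESC lines, 5.66 to 6.50 in teratoma cultures and 5.43 to 5.57 in skin cultures. Of 8 fibroblast markers 5 were called lower in ESCs. The mean of these 8 genes was 6.80 to 6.85 in ESC lines, 10.68 to 11.12 in teratoma cultures and 10.69 to 10.86 in skin cultures. In C3806a the probe sets for the 3′ and 5′ ends of actin differed by 3.89 log2 units, a wider gap than the 0.78 or less of every other array.

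All 5 genes were higher in ESCs than in teratoma fibroblasts, and the size ran from a 328-fold difference for EPCAM to 4.13-fold for the brighter probe set of CXADR. The rule for a call was a limma p under 0.05 after Benjamini-Hochberg adjustment over all probe sets, together with a log2 difference of 1 or more in size. By that rule 6 of the 7 probe sets were called higher in ESCs than in teratoma fibroblasts, and 6.12% of all probe sets tested were called higher. Against skin fibroblasts 6 of 7 were called higher, where 9.52% of all probe sets were. The uncalled probe set was the dimmer of the 2 for CXADR. The median log2 difference of the 7 probe sets was 3.50 against teratoma fibroblasts and 3.74 against skin fibroblasts, while the median over all probe sets tested was 0.01 in both. Each comparison of ESCs uses the same ESC arrays, so the 2 sets of values are not independent. Each ESC line is 1 source and adds nothing to the estimate of spread. The SEs, p-values and intervals of ESCs against fibroblasts thus rest on the spread of the fibroblast cultures and do not measure variation between ESC lines. These are bulk cultures, in which fewer cells of a type and less RNA per cell cannot be told apart.

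**Figure D1:**
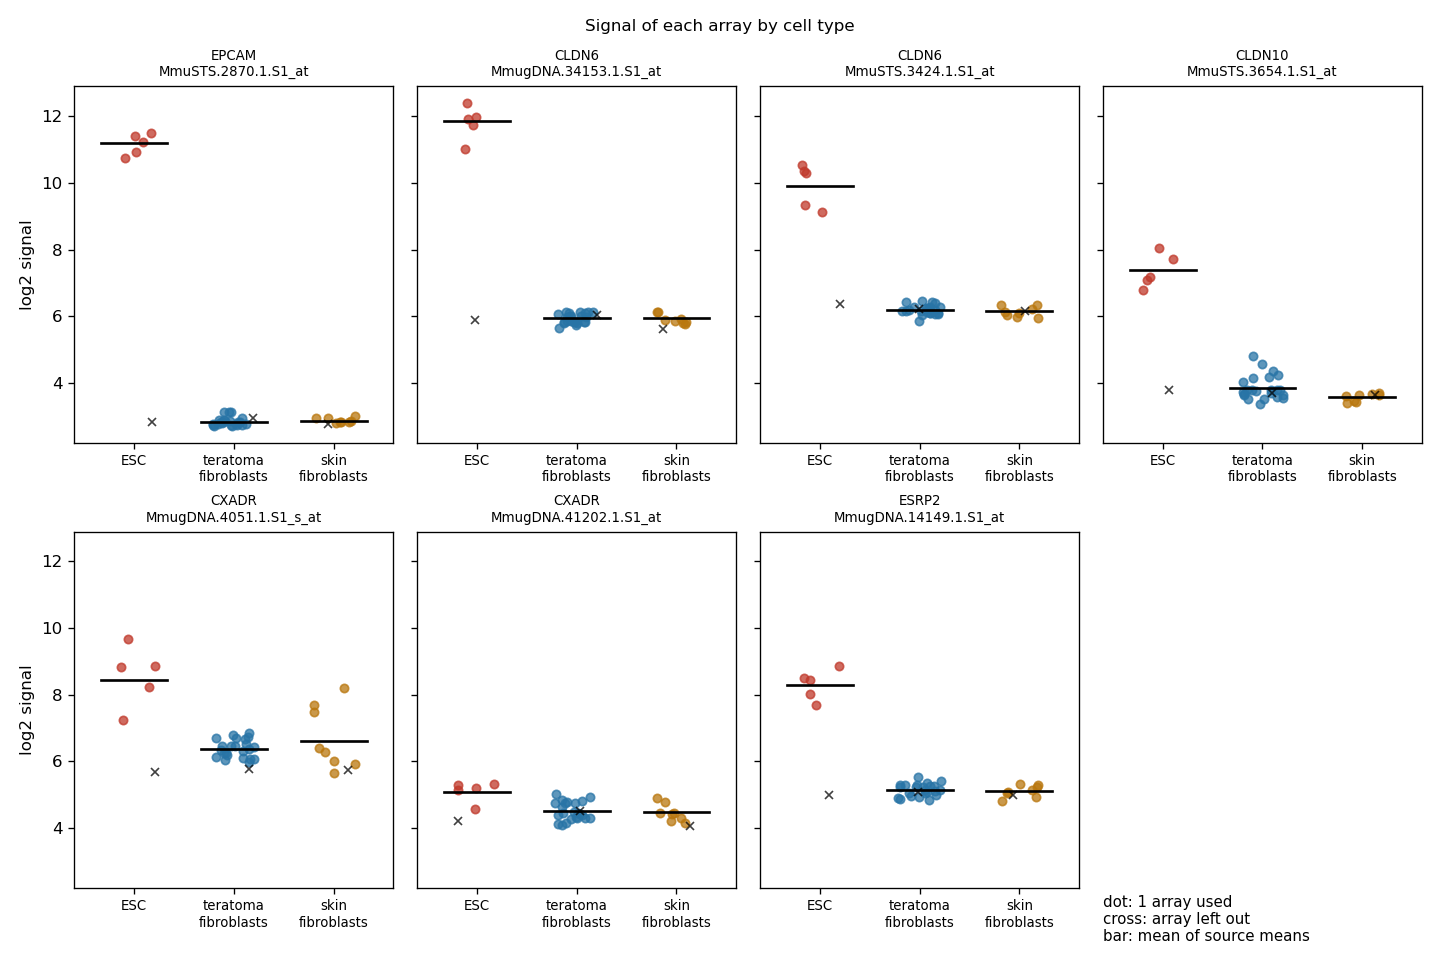
Log2 signal (y axis) of the 7 probe sets in ESCs, teratoma fibroblasts and skin fibroblasts (x axis). Each dot is 1 of the 36 arrays used, each cross 1 of the 3 arrays left out, and each bar the mean of the source means. EPCAM lies between 10.75 and 11.48 in ESCs and between 2.69 and 3.13 in teratoma fibroblasts, and the cross among the ESCs (C3806c) sits at the level of the fibroblasts in all 7 panels.

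EPCAM showed the widest separation. Its log2 signal was 10.93, 11.22 and 10.75 in the 3 arrays of C3106, and 11.41 and 11.48 in the 2 arrays of C3806. In the 23 teratoma fibroblast arrays it ran from 2.69 to 3.13 with a median of 2.81. In the 8 skin fibroblast arrays it ran from 2.78 to 3.00 with a median of 2.83. Every ESC array lay above every fibroblast array, and the arrays of both kinds of fibroblast overlapped. The source means averaged 11.21 ± 0.34 in ESCs (SD, n = 2), 2.83 ± 0.11 in teratoma fibroblasts (SD, n = 8) and 2.86 ± 0.05 in skin fibroblasts (SD, n = 3). ESCs exceeded teratoma fibroblasts by 8.36 log2 units for EPCAM (SE 0.07, limma adjusted p = 1.7e-12), and skin fibroblasts by 8.34 (SE 0.09, adjusted p = 6.86e-12). Among 14132 genes, each represented by its brightest probe set, EPCAM had rank 1 for the log2 difference from each kind of fibroblast. Detection calls were not used here, so a fold change against a signal this low is a ratio of array signals and may understate the ratio of transcripts.

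CLDN6, a claudin of embryonic epithelia, was the claudin with the largest difference. Its brighter probe set, MmugDNA.34153.1.S1_at, read 11.001, 11.75 and 11.96 in C3106 and 12.41 and 11.91 in C3806. The same probe set ran from 5.65 to 6.14 with a median of 5.97 in teratoma fibroblasts, and from 5.77 to 6.13 with a median of 5.87 in skin fibroblasts. No fibroblast array came within several log2 units of an ESC array. The difference of ESCs was 5.92 from teratoma fibroblasts (SE 0.11, limma adjusted p = 1.89e-10) and 5.93 from skin fibroblasts (SE 0.13, adjusted p = 7.1e-10). The other probe set for CLDN6, MmuSTS.3424.1.S1_at, read 9.33, 10.53 and 10.36 in C3106 and 9.14 and 10.29 in C3806. It ran from 5.85 to 6.45 in teratoma fibroblasts and from 5.96 to 6.34 in skin fibroblasts. Both probe sets thus separated the cell types, with a smaller difference on the second: 3.68 (SE 0.09) from teratoma fibroblasts and 3.74 (SE 0.10) from skin fibroblasts, with limma adjusted p-values of 1.25e-09 and 4.12e-09.

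CLDN10, a claudin that forms paracellular ion channels in kidney and other epithelia, was also higher in ESCs. It read 7.10, 8.06 and 6.77 in C3106 and 7.16 and 7.71 in C3806. In teratoma fibroblasts it ran from 3.37 to 4.80 with a median of 3.78, and in skin fibroblasts from 3.39 to 3.70 with a median of 3.62. The ESC arrays all stood above the fibroblast arrays, and some teratoma arrays stood above every skin array. The difference of ESCs was 3.50 from teratoma fibroblasts (SE 0.24, limma adjusted p = 1.92e-06), an 11.3-fold ratio. From skin fibroblasts it was 3.81 (SE 0.27, adjusted p = 3.23e-06).

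ESRP2, the splicing regulator, was higher in every ESC array. It read 8.44, 7.68 and 8.86 in C3106 and 8.03 and 8.50 in C3806. The 23 teratoma arrays lay between 4.85 and 5.54 with a median of 5.15, and the 8 skin arrays between 4.81 and 5.33 with a median of 5.11. The ESC and fibroblast arrays did not overlap. ESCs exceeded teratoma fibroblasts by 3.14 (SE 0.08, limma adjusted p = 1.67e-09) and skin fibroblasts by 3.18 (SE 0.09, adjusted p = 5.8e-09) for ESRP2.

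CXADR was the least clear-cut of the 5 genes. Its brighter probe set, MmugDNA.4051.1.S1_s_at, read 8.86, 9.67 and 8.83 in C3106 and 7.25 and 8.24 in C3806. It ran from 5.99 to 6.84 with a median of 6.37 in teratoma fibroblasts, below every ESC array. In skin fibroblasts it ran from 5.66 to 8.22 with a median of 6.34 and overlapped the ESC arrays through a single culture. That culture, M032, read 7.49, 7.69 and 8.22, whereas M088 read 6.29, 6.02 and 6.39 and M106p1 read 5.93 and 5.66. In the order of source means C3106 came first with 9.12 ± 0.48 (SD, n = 3 arrays), then M032 with 7.80 ± 0.38 (SD, n = 3) and C3806 with 7.75 ± 0.70 (SD, n = 2). The arrays of M032 and C3806 overlapped, and all other cultures had means of 5.79 to 6.63. The difference of ESCs was 2.05 from teratoma fibroblasts (SE 0.40, limma adjusted p = 0.00237) and 1.82 from skin fibroblasts (SE 0.46, adjusted p = 0.00911).

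Both CXADR calls depended on the line C3106. Without that source the difference was 1.36 from teratoma fibroblasts (limma adjusted p = 0.082) and 1.14 from skin fibroblasts (adjusted p = 0.163). Without the skin culture M032 the difference from skin fibroblasts was 2.42 (adjusted p = 3.83e-05). The dimmer CXADR probe set, MmugDNA.41202.1.S1_at, read 5.28, 5.19 and 5.15 in C3106 and 5.33 and 4.58 in C3806. It ran from 4.11 to 5.03 in teratoma fibroblasts and from 4.16 to 4.89 in skin fibroblasts, so that its groups overlapped. Its difference was 0.57 from teratoma fibroblasts (SE 0.17, limma adjusted p = 0.0194) and 0.60 from skin fibroblasts (SE 0.19, adjusted p = 0.0273), under the fold limit of the call. The high signal of M032 on the brighter probe set had no counterpart here, where M032 averaged 4.49 and M106p1 averaged 4.62.

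**Figure D2:**
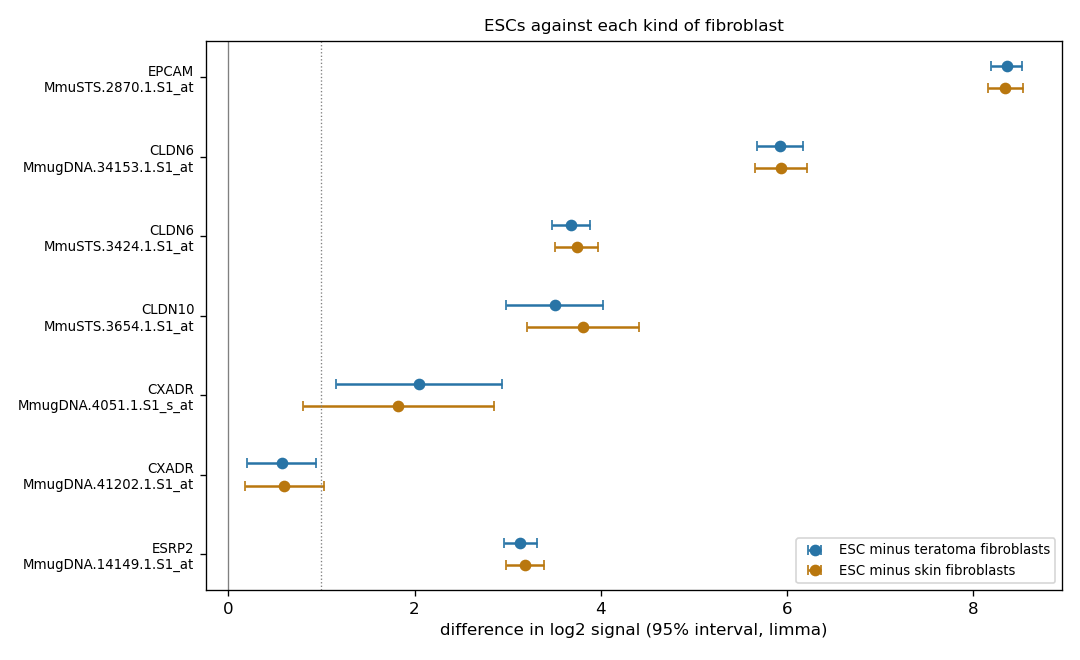
Difference in log2 signal (x axis) of ESCs minus teratoma fibroblasts (blue) and ESCs minus skin fibroblasts (brown) for the 7 probe sets (y axis), with limma's 95% confidence intervals. The intervals take their spread from the fibroblast cultures, since each ESC line is 1 source. The solid line marks no difference and the dotted line the fold limit of 1 log2 unit. The EPCAM interval against teratoma fibroblasts runs from 8.19 to 8.52, and that of the dimmer CXADR probe set from 0.20 to 0.94.

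Between teratoma and skin fibroblasts none of the 7 probe sets was called by limma, and none had an unadjusted p under 0.05, where 1.06% of all probe sets were called. For EPCAM teratoma minus skin was -0.02 (95% interval -0.16 to 0.13, limma adjusted p = 0.929), and for ESRP2 it was 0.04 (interval -0.11 to 0.20). CLDN6 differed by 0.01 (interval -0.20 to 0.22) and 0.06 (interval -0.11 to 0.23) on its 2 probe sets. CLDN10 gave 0.31 (interval -0.14 to 0.76, limma adjusted p = 0.428). The brighter CXADR probe set gave the widest interval, -0.22 (interval -0.99 to 0.54), with skin cultures from 5.79 to 7.80. These intervals are of array signals. EPCAM lay near the lowest value of the data, 2.11, in both kinds of fibroblast, so its narrow interval does not bound a difference in transcript level. The mean signals of CLDN10, ESRP2 and both CLDN6 probe sets in both kinds of fibroblast also lay below the lowest array median, 6.25. Their intervals may likewise not bound such a difference.

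Of the 5 genes only CXADR was called between the ESC lines. In limma on the arrays, CXADR was higher in C3106 than in C3806 by 1.37 on its brighter probe set (SE 0.26, adjusted p = 0.00127). This was 1 of the 7 probe sets, where 1.79% of all probe sets were called. EPCAM had -0.48 (SE 0.11, limma adjusted p = 0.00483) and CLDN6 on its brighter probe set -0.59 (SE 0.16, adjusted p = 0.0194), both under the fold limit of the call. The second CLDN6 probe set went the other way, 0.36 (SE 0.24, adjusted p = 0.362), so the CLDN6 probe sets disagree in sign. CLDN10 differed by -0.12 (95% interval -0.57 to 0.33) and ESRP2 by 0.06 (95% interval -0.40 to 0.53).

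The CXADR call between the lines was lost without C3806a, the array with the wide actin gap. The difference was then 0.88 (limma adjusted p = 0.0847), and without C3806b it was 1.87 (adjusted p = 3.84e-05). In each of these fits C3806 is a single array, which is assumed to vary like the arrays of the other sources. The remaining C3806 array had higher signals of several endoderm genes than any other ESC array. GATA6, an endoderm transcription factor, read 4.49 to 6.11 in the arrays of C3106, and 10.13 in C3806b and 5.00 in C3806a. The fibroblasts had high GATA6 signals as well, with means of 10.43 in teratoma and 9.95 in skin fibroblasts. SOX17, another endoderm factor, read 5.12 to 5.58 in C3106, and 8.64 in C3806b and 5.45 in C3806a. Of 10 endoderm markers 4 were called lower in C3106 than in C3806 (SOX17, GATA6, CXCR4 and CER1) and none higher, where 0.326% of genes were called lower and 0.764% higher. All 4 endoderm calls rested on the array C3806b. Without it none of the 10 was called, and the differences were 0.11 for GATA6, 0.31 for CXCR4, -0.17 for SOX17 and -0.08 for CER1 (limma adjusted p = 0.406 to 0.854). The mean of the 10 endoderm markers, both C3806 arrays included, was 6.26 in C3106 and 7.27 in C3806. The part of these signals and of the actin gap in the differences between lines was not tested.

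Some of the other listed genes were called between the lines, where 0.764% of all genes were higher in C3106 and 0.326% lower. C3106 was lower for 1 of 16 claudin family genes and 1 of 10 epithelial transcription factors and associated genes. It was higher for 1 of 17 adherens junction and desmosome genes and 1 of 10 mesenchymal genes. None of the 20 tight junction genes, 6 relatives of CXADR, 9 partners of EPCAM or 8 splicing genes was called. CLDN7, a claudin of simple epithelia, read 7.61, 8.57 and 7.77 in C3106 and 9.44 and 8.82 in C3806, a difference of -1.14 (limma adjusted p = 0.000165). RAB25, a small GTPase of epithelial membrane recycling, read 6.77, 7.53 and 6.74 in C3106 and 8.51 and 8.26 in C3806, a difference of -1.37 (limma adjusted p = 7.86e-06). For both genes each C3806 array lay above each C3106 array. KRT8, a keratin of simple epithelia, read 8.60, 8.57 and 9.46 in C3106 and 7.24 and 8.37 in C3806, a difference of 1.07 (limma adjusted p = 0.0164). TCF4, a transcription factor of the mesenchymal list, read 8.22, 8.49 and 8.10 in C3106 and 6.72 and 7.66 in C3806, a difference of 1.08 (limma adjusted p = 0.000397). Of these 4 genes only RAB25 kept its call without C3806a, at -1.25 (limma adjusted p = 0.000146). CLDN7 then had -0.83 (adjusted p = 0.0103), KRT8 0.51 (adjusted p = 0.488) and TCF4 0.61 (adjusted p = 0.0388), all under the fold limit. Without C3806b all 4 calls were kept.

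Whether the step from ESC to teratoma fibroblast differed between the lines was asked as an interaction in limma on the source means. For EPCAM the step was 8.20 in C3106 and 8.52 in C3806, for CLDN10 it was 3.53 and 3.48, and for ESRP2 it was 3.21 and 3.06. CXADR had 2.79 in C3106 and 1.31 in C3806 on its brighter probe set, a difference of 1.48 (SE 0.80, limma adjusted p = 0.817). The CLDN6 probe sets gave opposite signs, -0.50 and 0.52, with unadjusted p-values of 0.0465 and 0.0165 and limma adjusted p-values of 0.655 and 0.457. None of the 7 interactions was called, where 0.196% of all probe sets were. Without C3806b the second CLDN6 probe set was called, at 1.09 (limma adjusted p = 0.0117). The fit takes the spread of the ESC lines from the fibroblast cultures, since each line is 1 source.

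Among the 8 teratoma cultures only CLDN10 varied by the call rule. The rule was an F test in limma together with a range of source means of at least 1 log2 unit. It called 1 of the 7 probe sets and 14.4% of all probe sets, so the count is near the share over all probe sets. The CLDN10 source means ran over 1.06 log2 units (adjusted p = 0.000886). TA31 read 4.55, 4.80 and 4.19, a mean of 4.51 ± 0.31 (SD, n = 3 arrays), and TB38 read 4.24, 4.14 and 4.36, a mean of 4.25 ± 0.11 (SD, n = 3 arrays). The arrays of these 2 cultures overlapped each other and lay above those of the other 6 cultures, whose means were 3.45 to 3.86. The skin cultures had CLDN10 means of 3.55 to 3.57. All of these values stayed below the lowest ESC array, 6.77, and below the lowest array median, 6.25. The call was lost without array TA31b and without array TB31b, because the range then came to less than 1.

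The mean of the ESC markers in teratoma cultures ran from 5.66 to 6.50 and was 6.37 in TA31 and 6.50 in TB38. It was 6.40 in TC38, a culture with a CLDN10 mean of 3.76. SOX2, which neural cells share with ESCs, ran from 4.78 in TD31 to 10.90 in TB38, while POU5F1 stayed between 4.64 and 4.90 in all teratoma cultures. The 5 neural markers averaged 8.20 in TA31 and 7.79 in TB38, within a range of 7.05 to 8.61 over the teratoma cultures and 6.55 to 7.03 over skin. The highest neural mean, 8.61, was that of TA38, a culture with a CLDN10 mean of 3.86. The part of such cells in the CLDN10 signal was not tested. For EPCAM, CLDN6 and ESRP2 the F test found no call, and their teratoma source means spanned 0.27 to 0.34 log2 units. CXADR spanned 0.60 on its brighter probe set (limma adjusted p = 0.329) and 0.61 on its dimmer one (adjusted p = 0.0308, under the fold limit).

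**Figure D3:**
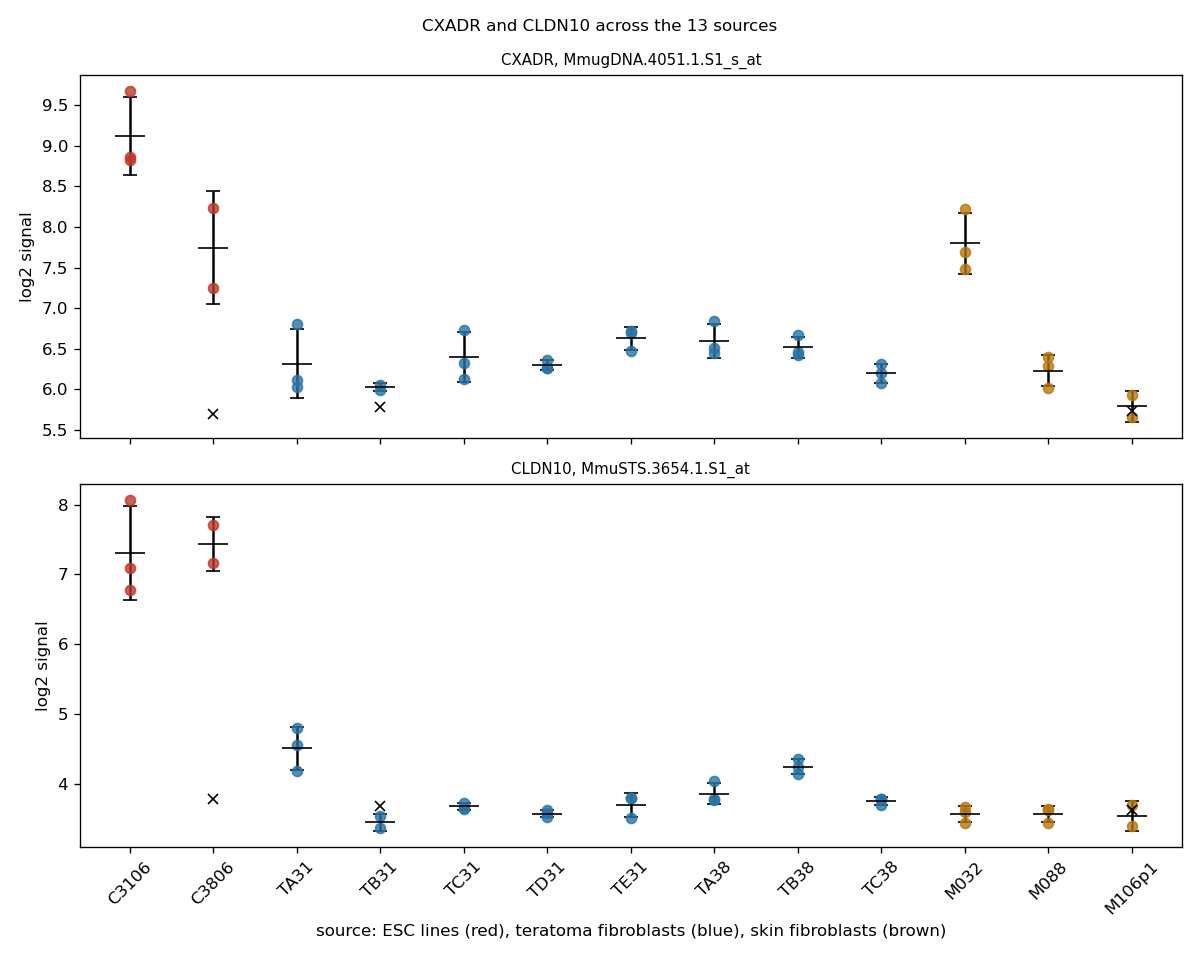
Log2 signal (y axis) of CXADR on its brighter probe set (top) and of CLDN10 (bottom) in the 13 sources (x axis): ESC lines in red, teratoma fibroblasts in blue, skin fibroblasts in brown. Dots are arrays, crosses arrays left out, and black marks the mean and SD over the arrays used. For CXADR the skin culture M032 (mean 7.80) stands at the level of C3806 (mean 7.75), and for CLDN10 the teratoma cultures TA31 (4.51) and TB38 (4.25) stand above the other fibroblasts.

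Over the 13 source means the log2 signals of EPCAM, CLDN6, CLDN10 and ESRP2 correlated with Pearson's r of 0.976 to 0.998, which mostly reflects the gap between 2 ESC points and 11 fibroblast points. The brighter CXADR probe set had r of 0.781 to 0.809 with these probe sets. Within the 11 fibroblast sources the probe sets of different genes no longer ran together as closely. EPCAM and ESRP2 had r = 0.602 there, EPCAM and CLDN6 had -0.105 and 0.0637, and CLDN6 and CLDN10 had 0.473 and 0.376. The 2 CLDN6 probe sets, which report 1 gene, had r = 0.807 among the fibroblast sources, whereas the 2 CXADR probe sets had 0.132. All points share the arrays' normalization, so these values are descriptions.

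The genes whose source means were most like those of EPCAM over the 13 sources were CHGB, VTCN1, PRDM14, POU5F1 and LIN28B, with r of 0.998 to 0.999. CHGB encodes a protein of secretory granules, VTCN1 an inhibitory ligand for T cells, and the other 3 are known regulators of pluripotent cells. CLDN6 was nearest to SALL4, VTCN1, PRDM14, GPR19 and POU5F1 (r of 0.998 to 0.999), and ESRP2 to CHGB, POU5F1, LIN28B, LOC699676 and ADH4 (r of 0.996 to 0.998). CLDN10 was nearest to STON2, SVOPL, BEND4, SERPINA5 and PLEKHH1, with r of 0.984 to 0.994. The neighbours of CXADR were LOC708538, R3HCC1L, PAFAH2, MRPS23 and MCHR1, with the lower r of 0.922 to 0.945.

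The other members of these genes' families and pathways were counted on the brightest probe set of each gene. On that basis 6.33% of genes were called higher and 8.16% lower in ESCs than in teratoma fibroblasts, and 10.2% higher and 9.74% lower than in skin fibroblasts. The median difference over all genes was 0.02 from teratoma fibroblasts and 0.03 from skin fibroblasts. Of 16 further claudin family genes, 1 was called higher and none lower against each kind of fibroblast, and their median was 0.06 and 0.15. CLDN7 was the called gene, with 8.56 in ESCs, 6.75 in teratoma fibroblasts and 6.80 in skin fibroblasts, a difference of 1.80 and 1.76 (limma adjusted p = 3.09e-07 and 1.14e-06). CLDN3 had a difference of 0.84 and 0.86 and CLDN23 of 0.66 and 0.83, all under the fold limit. CLDN1, a claudin of many epithelia, had -1.35 against teratoma fibroblasts (adjusted p = 0.328), with teratoma cultures from 5.05 in TE31 to 8.16 in TA38. Of the claudin family genes measured, CLDN6, CLDN10 and CLDN7 were thus the called ones.

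Of 20 other tight junction genes 3 were called higher and 1 lower, against each kind of fibroblast, with medians of 0.26 and 0.27. F11R, the junctional adhesion molecule A and like CXADR an immunoglobulin-type protein, was 12.33 in ESCs, 8.07 in teratoma fibroblasts and 7.32 in skin fibroblasts, a difference of 4.14 and 5.01 (limma adjusted p = 0.000165 and 0.000113). CGN, the cytoplasmic plaque protein cingulin, was higher by 2.67 and 2.92, though its other probe set gave 0.89 and 0.83. MAGI1, a scaffold protein of junctions, was higher by 2.08 and 2.05, and its other probe set gave 0.78 and 0.59. AMOTL2, an angiomotin-like protein, was lower by -1.39 and -1.44. OCLN, the tight junction protein occludin, had 0.98 and 1.73 without passing the test (adjusted p = 0.313 and 0.115), with teratoma cultures from 3.84 to 6.77. It was named after its values were seen.

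Of 6 relatives of CXADR none was called against teratoma fibroblasts and 1 was lower against skin fibroblasts, with medians of -0.04 and -0.05. That gene, CLMP, an adhesion protein of the same family, had -1.35 (limma adjusted p = 0.0839) and -2.10 (adjusted p = 0.0238). GPA33, VSIG1 and VSIG2 had differences between -0.12 and 0.18. Of 9 relatives, partners and proteases of EPCAM 1 was higher and 2 were lower against teratoma fibroblasts, and 1 was higher and 3 lower against skin fibroblasts, with medians of 0.01 and -0.54. PRSS8, the membrane serine protease prostasin, was higher by 1.45 and 1.42. CD44, a hyaluronan receptor, was lower by -1.53 and -1.98, and FHL2, a protein reported to bind the intracellular part of EPCAM, by -1.45 and -1.13. The tetraspanin CD9 was lower against skin fibroblasts by -1.12 and had -0.54 against teratoma fibroblasts (adjusted p = 0.06). Whether such pairs of differences differ from each other was not tested. TSPAN8, another tetraspanin, had -0.86 against teratoma fibroblasts (adjusted p = 0.0731).

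Beside ESRP2, 8 splicing regulators and targets were measured, of which 1 was higher and 1 lower against teratoma fibroblasts and 2 higher and 1 lower against skin fibroblasts, with medians of 0.26 and 0.57. MBNL2, a muscleblind splicing factor, was 5.73 in ESCs, 10.75 in teratoma fibroblasts and 11.42 in skin fibroblasts, a difference of -5.01 and -5.69 (limma adjusted p = 1.54e-06 and 1.89e-06). CELF1, an RNA-binding protein that opposes muscleblind proteins at some exons, was higher by 1.08 and 1.15. FGFR2, whose mutually exclusive exons are a classical ESRP target, was higher than in skin fibroblasts by 3.01 (adjusted p = 0.00487) and had 1.38 against teratoma fibroblasts (adjusted p = 0.0916). CTNND1 had 0.52 and 0.60, neither called. These probe sets measure genes and not the exons that ESRP proteins act on.

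Of 17 adherens junction and desmosome genes 4 were higher and none lower against teratoma fibroblasts, and 6 were higher and none lower against skin fibroblasts, with medians of 0.49 and 1.06. KRT19, a keratin of simple epithelia, was higher by 3.94 and 4.40, the desmosomal cadherin DSC2 by 3.53 and 6.36, and P-cadherin, CDH3, by 2.15 and 2.20. AFDN, a nectin-binding scaffold, was higher by 1.50 and 1.14, and its other probe set gave 0.66 and 0.75. NECTIN3 and JUP, the desmosome protein plakoglobin, were called higher against skin fibroblasts, by 1.06 and 1.22, and had 0.61 and 0.58 against teratoma fibroblasts without a call. The other JUP probe set gave -0.06 against skin fibroblasts. CDH1, the epithelial cadherin, read 5.66 ± 0.08 in ESCs (SD, n = 2), 5.68 ± 0.06 in teratoma fibroblasts (SD, n = 8) and 5.64 ± 0.06 in skin fibroblasts (SD, n = 3), a difference of -0.02 and 0.02. Its single probe set thus did not separate the cell types that EPCAM separated, and CDH1 was singled out after its values were seen. These means lay below the lowest array median, 6.25. Whether the probe set responds to CDH1 transcripts was not tested, so equal signals need not mean equal transcript levels.

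DSP, the desmosome protein desmoplakin, was also chosen after its values were seen, because it varied widely among the teratoma cultures, whose EPCAM means spanned 0.34 log2 units. Its mean was 10.83 ± 0.17 in ESCs (SD, n = 2), 9.57 ± 2.62 in teratoma fibroblasts (SD, n = 8) and 5.66 ± 0.62 in skin fibroblasts (SD, n = 3). Teratoma cultures ran from 4.12 in TE31 to 12.84 in TD31, a culture whose EPCAM mean was 2.78. The keratinocyte markers gave no call in either comparison, with 0 of 7 called, and their mean was 6.60 to 6.62 in ESC lines, 6.32 to 6.91 in teratoma cultures and 6.31 to 6.37 in skin cultures. The highest teratoma value was that of TD31, where DSC3 read 7.31 (teratoma mean 4.40) and KRT10 11.23 (teratoma mean 11.02). The other keratinocyte markers were highest in other cultures, and SFN was lowest in TD31, at 6.38. These genes were named after their values were seen. The skeletal muscle markers averaged 8.96 in TD31, and which cells gave these signals was not tested.

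Of 10 epithelial transcription factors and associated genes 3 were higher and 1 lower against each kind of fibroblast, with medians of 0.26 and 0.39. OVOL2, a zinc finger repressor of mesenchymal genes, was higher by 2.40 and 2.38, RAB25 by 1.69 and 1.73, and GRHL3, a grainyhead factor of surface epithelia, by 1.10 and 1.09. KLF5, a factor of epithelial and pluripotent cells, was lower by -2.44 and -2.51, so the list did not move one way. GRHL1 had 0.01 and -0.03 without a call, though its other probe set gave 1.82 and 1.96. That gene was named after its values were seen. Of 10 mesenchymal transcription factors and markers 7 were lower in ESCs and none higher, against each kind of fibroblast, with medians of -1.90 and -2.09. PRRX1, a factor of limb and connective tissue mesenchyme, was lower by -6.61 and -7.36, and ZEB2, a repressor of epithelial adhesion genes, by -4.61 and -5.25. CDH11, a mesenchymal cadherin, was lower by -3.86 and -3.99, and fibronectin, FN1, by -3.10 and -2.86.

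**Figure D4:**
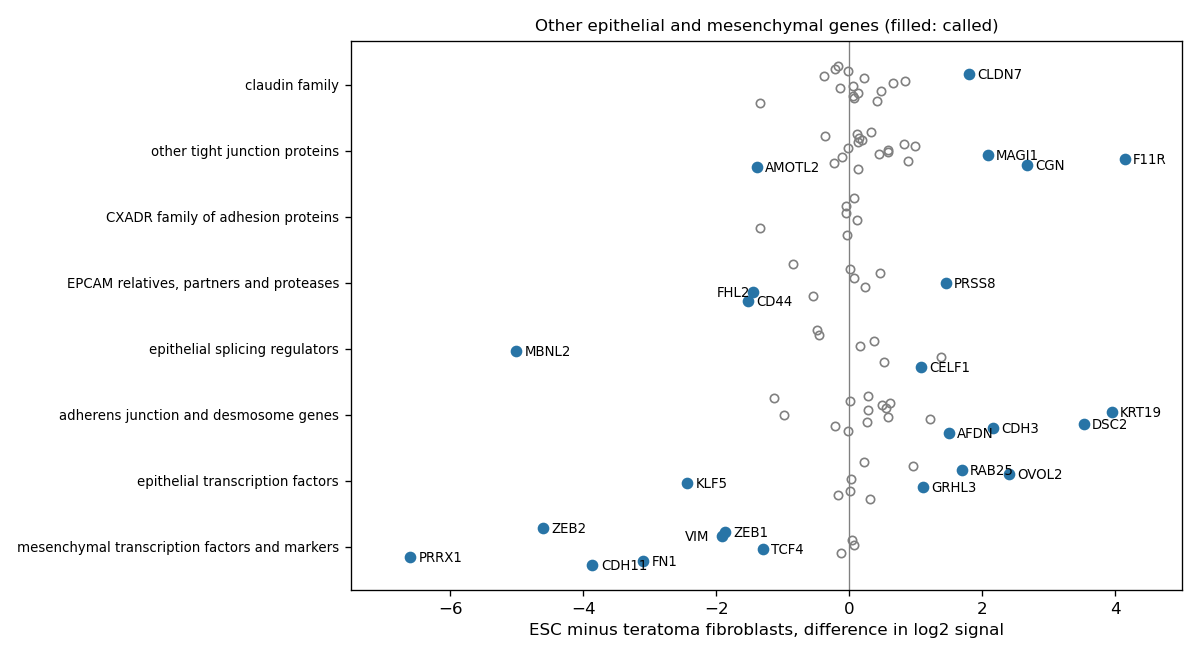
Difference in log2 signal of ESCs minus teratoma fibroblasts (x axis) for genes of 8 lists (y axis), each gene 1 dot on its brightest probe set. Filled and named dots passed limma's test with a difference of at least 1, and open dots did not. In the claudin family only CLDN7 (1.80) is filled, while 7 of 10 mesenchymal genes are filled on the lower side, down to PRRX1 (-6.61).

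Markers of other cell types gave few calls. Of all genes 6.33% were higher and 8.16% lower in ESCs than in teratoma fibroblasts. Against skin fibroblasts the shares were 10.2% and 9.74%, so a count of 1 in lists this short is near them. Of 9 trophoblast markers 2 were lower in ESCs than in teratoma fibroblasts and 1 than in skin fibroblasts, with none higher. Their mean was 6.75 to 6.77 in ESC lines, 7.26 to 8.05 in teratoma cultures and 7.02 to 7.72 in skin cultures. Of 10 endoderm markers 1, GATA6, was lower against each kind of fibroblast and 3 were higher against skin fibroblasts. The 5 neural markers gave 1 higher and 2 lower against teratoma fibroblasts and 1 higher and 1 lower against skin fibroblasts. None of the 7 skeletal muscle markers was called against teratoma fibroblasts and 1 was higher against skin fibroblasts. The mean of these genes was 6.31 to 6.33 in ESC lines and 5.88 to 9.31 over teratoma cultures.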

How the data were processed

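The authors deposited a log2 signal for each probe set of each array, made with GCOS and RMA per the submitters' processing notes, which name no version. RMA corrects background, equalises the arrays' distributions and summarises the probes of a set, so the values are relative. They ran from 2.11 to 14.18, with array medians of 6.25 to 6.48. Arrays have no depth, and their number limits the precision.

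Gene names came from the platform's annotation. Of 52865 probe sets, 24956 with a single gene name and neither control nor viral were tested, for 14132 genes. Means of each source's arrays entered limma 3.58.1 (R 4.3.3) as 5 classes, namely C3106, C3806, their teratoma fibroblasts apart, and skin, which left 8 residual degrees of freedom. Line differences and the F test used 36 arrays with 23. Tests were two-sided, with p-values adjusted by Benjamini-Hochberg over all probe sets. Named genes were all members and each member's 5 nearest genes by correlation. Of each family or pathway list they were the 4 largest differences from teratoma fibroblasts and, with 6 or fewer called, all called genes. For the cell type marker lists counts and means were given, and the genes named there did not follow this rule. Members and lists were chosen with earlier results of these data known. Alternatives covered the arrays kept, classes, probe sets, normalization, blocks and each array or source left out. The steps were tested on simulated data.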

Additional observations from a re-analysis of the deposited data

Results flagged for a closer look

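CLDN10 stood apart in 1 teratoma culture of line C3106. TA31 had a mean log2 signal of 4.51, while the other 4 cultures of that line had means of 3.45 to 3.70, and the gap was a larger share of the group's range than Dixon's 95% limit allows for 5 samples. The 3 arrays of TA31 all lay above those of the other cultures of the line. All of these signals lay below the lowest array median, 6.25. In all, 14 groups of sources were looked at in this way and 1 passed, and chance passes about 1 in 20 groups.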

How the results depend on the processing

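The 7 differences of ESCs from each kind of fibroblast and the called CXADR difference between the lines made 15 results. Line differences and interactions without a call in the main fit were not among these. Of 864 recomputed values 860 kept their direction and side of the threshold, 4 kept the direction but lost the call, and 0 reversed. All 4 concern the brighter CXADR probe set, without line C3106 or without C3806a as given above. EPCAM's difference from teratoma fibroblasts ran from 6.91 with all 39 arrays to 8.60. Against each kind of fibroblast 5 or 6 probe sets were called in all 59 alternatives, with 5 on the brightest probe set of each gene and without line C3106, and between teratoma and skin fibroblasts 0 in all 59. With all 39 arrays 4 interactions were called (EPCAM 2.53, CLDN6 1.58 and 1.62, ESRP2 1.23), and that setting puts the array C3806c among the ESCs. The interactions of EPCAM and of the brighter CLDN6 probe set changed sign there, from -0.32 and -0.50 in the main fit. Leaving out single arrays or sources gave 0 to 1 interactions, 0 to 1 calls between ESC lines (0 without C3806a) and 0 to 1 among teratoma cultures (0 without TA31b or TB31b, and 0 with all 39 arrays). The cause of these changes was not tested further. With 3 classes no interaction could be fitted. The letter of the array label as a replicate block left the member counts at 6, 6, 0, 0, 1 and 1; the letters pair nothing by the labels.

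Over all probe sets, calls between ESCs and teratoma fibroblasts numbered 3652, against 6110 with unnamed probe sets and 2044 with 1 per gene; between ESCs and skin fibroblasts 4816, against 7871 and 2824. Between teratoma and skin fibroblasts there were 265, against 72 with all 39 arrays, 170 with 1 per gene, and 926 and 887 with the source as a random block, without and with the letter as a replicate block. Interactions numbered 49, against 111 with all 39 arrays, 78 with unnamed probe sets, 27 after a filter on dim ones, 8 with 1 per gene, 79 with centred arrays, and 3 and 4 with the random block. Calls between the ESC lines numbered 446, against 698 and 153, and among teratoma cultures 3585, against 5735 and 2118, with unnamed probe sets and with 1 per gene. Alternatives chosen after seeing the data recounted the lists. With all 39 arrays the lower calls against skin fibroblasts fell to 0 for relatives of CXADR and 1 for partners of EPCAM, and the higher splicing genes to 0 against teratoma and 1 against skin fibroblasts. The neural lower calls became 0 and 0, and the higher calls of endoderm and of skeletal muscle genes against skin fibroblasts 0 each. Without C3806a 3 endoderm genes were higher against teratoma fibroblasts. Among genes called between the ESC lines, leaving out each C3806 array in turn gave GATA6 -5.03 (without C3806a) and 0.11 (without C3806b), and CXCR4 -3.49 and 0.31 in the same order, while the other 6 named genes kept their sign.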
